A study of Mus musculus with 4 samples.

Results

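The RGS genes encode regulators of G protein signalling, and 8 of them were followed here: Rgs1, Rgs2, Rgs3, Rgs10, Rgs14, Rgs16, Rgs18 and Rgs19. They come from a list of RGS genes and had UMIs in all 4 count tables, 8 genes of 26687 gene symbols in all. Rgs8, Rgs9, Rgs11 and Rgs12 also had UMIs in all 4 but are not members. The members were chosen by their measured level in each genotype, as UMIs per 1000000 UMIs of the library (CPM) and as the share of cells with a UMI, so those values are given as a description and carry no test. Of 13 further RGS genes looked up, 6 were in the tables (Rgs6, Rgs7, Rgs8, Rgs9, Rgs11 and Rgs12), none at 20 CPM or more in any library. Rgs12 came nearest, at 16.6 CPM in Mx, 10.8 with NPMc+, 13.5 with Flt3-ITD and 15.9 in NPMc+/Flt3-ITD. It was above Rgs16 in every library and above Rgs3 in Mx, NPMc+ and Flt3-ITD, so the members are not simply the RGS genes with most UMIs.

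The cells were long-term haematopoietic stem cells (LT-HSCs) of C57BL/6 mice 8 to 11 weeks old, sorted from crushed limb bones and sternum and read with droplet 3′ single-cell RNA-seq, with 1 library per genotype. The control library, Mx, came from mice labelled MxCRE, in which the Cre recombinase is driven by the interferon-inducible Mx1 promoter. The NPMc+ library carries the form of nucleophosmin that is mislocalised to the cytoplasm in acute myeloid leukaemia, the Flt3-ITD library an internal tandem duplication of the cytokine receptor Flt3, and the NPMc+/Flt3-ITD library both. The labels do not say whether the mutant mice also carry MxCRE or received an inducer, nor how many animals each library pooled. Genotypes were taken from the labels, and no allele was checked in the counts. With 1 library per genotype, genotype and library cannot be told apart. The intervals below are 95% intervals for counting error of the UMIs or cells only, and they hold nothing of the spread between animals.

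After filtering, 10608 of 11407 barcodes were kept, between 2375 and 3321 per library, with a median of 7323 to 9466 UMIs per cell. Male and female cells were both found in every library, 179 to 773 female cells in each, so each held cells of more than 1 animal, and 66 to 283 cells per library had UMIs of both sexes' genes and were left out of that split. Between libraries, 52 barcodes were shared with both copies kept. All 11 HSC markers had UMIs in every library, with a summed level of 1182 CPM in Mx, 941 with NPMc+, 596 with Flt3-ITD and 471 in NPMc+/Flt3-ITD. The 8 markers of multipotent or lymphoid-primed progenitors summed to 539, 496, 799.7 and 1916 CPM in the same order. Of the 13 T or NK markers, 12 or 13 had UMIs in each library, with sums of 164, 429, 297 and 1141 CPM, and only Ncr1 was at 0 in Flt3-ITD and NPMc+/Flt3-ITD. Most of these markers were low. Only 1 of the 13 reached 20 CPM in NPMc+ against Mx, 1 in Flt3-ITD against Mx and 4 in NPMc+/Flt3-ITD against Mx. The 12 megakaryocyte markers summed to between 596 and 1574 CPM, highest in NPMc+, and the 11 erythroid markers to between 92.8 and 281 CPM. The 11 B cell markers summed to 50.04, 1396, 86.2 and 199.5 CPM, with Pax5 at 0 in every library. What part these differences in marker levels, or any in cell make-up, have in the levels of the RGS genes was not tested beyond the subsets of cells given below. Fewer cells with a gene and fewer molecules per cell cannot be told apart in a summed CPM, so shares of cells are given beside it.

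A G protein is active while its alpha subunit holds GTP, and RGS proteins speed the hydrolysis of that GTP, which ends the signal of the receptor that switched the G protein on. In blood cells the receptors concerned include the chemokine receptors, which act largely through the Gi class, and Cxcr4 with its ligand Cxcl12 is known for holding stem cells in the marrow. The members differ in structure: Rgs1, Rgs2, Rgs16 and Rgs18 are small proteins of the R4 family that are little more than an RGS domain, Rgs3 is a larger R4 protein, Rgs10 and Rgs14 belong to the R12 family, and Rgs19 (also known as GAIP) to the RZ family.

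Rgs2, Rgs1 and Rgs18 lie in one cluster of the genome. In the GENCODE M21 annotation of mm10 they (Rgs2 at chr1:143999338-144004161, Rgs1 at chr1:144242296-144249242 and Rgs18 at chr1:144752683-144775435) are on the minus strand of chromosome 1, and the 5 consecutive protein-coding genes of the 776 kb stretch that they span are all RGS genes: Rgs2, Rgs13, Rgs1, Rgs21 and Rgs18. Rgs13 and Rgs21 were not in the tables analysed. Rgs16 is on the same chromosome at chr1:153740349-153745468 on the plus strand. Rgs3 is on chromosome 4 (62559847 to 62704001), Rgs10 on chromosome 7 (128373621 to 128418758), Rgs14 on chromosome 13 (55369732 to 55384687) and Rgs19 on chromosome 2 (181688419 to 181693977). Rgs3 and Rgs16 each overlap an antisense gene, and Rgs10 overlaps a transcript on its own strand, so their UMIs could include some of those genes; the strand setting of the counting was not given in the sources used here.

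RefSeq promoter windows of build GRCm38.p6, from 250 bases before to 50 bases after a start site, were at hand for 5 of the 8 members, with 8 windows in all; Rgs1, Rgs14 and Rgs18 were not among them. The windows of Rgs2 and Rgs10 are shown because these are the members at least 2-fold higher in NPMc+/Flt3-ITD than in Mx. Capitals mark the CRE half-site, TGACG on either strand, which is the shorter form of the cyclic AMP response element TGACGTCA; every full element holds a half-site. Rgs2 is at chr1:144004100-144004399 and Rgs10 at chr7:128418123-128418422, both on the minus strand, written 5′ to 3′ on that strand.
Rgs2: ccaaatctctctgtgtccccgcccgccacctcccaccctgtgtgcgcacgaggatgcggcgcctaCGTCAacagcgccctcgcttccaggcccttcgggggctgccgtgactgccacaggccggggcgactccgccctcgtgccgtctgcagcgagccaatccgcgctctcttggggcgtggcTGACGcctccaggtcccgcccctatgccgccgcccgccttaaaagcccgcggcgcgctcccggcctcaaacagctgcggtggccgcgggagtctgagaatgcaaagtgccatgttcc
Rgs10: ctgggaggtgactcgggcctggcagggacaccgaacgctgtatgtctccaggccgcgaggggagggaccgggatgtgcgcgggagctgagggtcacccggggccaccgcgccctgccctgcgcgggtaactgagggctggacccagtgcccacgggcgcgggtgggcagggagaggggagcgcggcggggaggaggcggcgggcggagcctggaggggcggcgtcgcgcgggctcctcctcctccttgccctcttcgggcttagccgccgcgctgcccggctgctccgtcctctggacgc
The Rgs2 window holds a half-site on each strand, with first bases 67 and 185 bases before the start, and no full element. Rgs10 has none. Of 32851 mouse promoter windows of the same length, 20.8% hold TGACG on either strand and 1.79% hold TGACGTCA. Both windows are rich in G and C, at 70% for Rgs2 with 33 CpG and 76% for Rgs10 with 34 CpG, against a median of 52.7% and 7 CpG over all windows. The GC box GGGCGG, which 35.7% of windows hold on either strand, occurs 4 times in the Rgs2 window and 2 times in that of Rgs10. The AP-1 letters TGAGTCA (5.20% of windows), the NR4A letters AAAGGTCA (1.51%) and the letters CACGTG (7.15%) are in neither, while CCAAT (37.4%) is in the Rgs2 window alone. Of the other 3 matched genes, Rgs3 has TATAAA (8.32% of windows) in both of its windows and AGATAA (11.2%), read on the other strand, in one of them. These matches are letters in a window, and binding was not measured.

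The 8 members together summed to 995 CPM in Mx, 1432 with NPMc+, 2805.5 with Flt3-ITD and 1435 in NPMc+/Flt3-ITD, and Rgs1 and Rgs2 differed most in CPM between the libraries. Rgs1, an R4 protein known for blunting the response of lymphocytes to chemokines, was at 427 CPM in Mx, 799 with NPMc+, 1497 with Flt3-ITD and 462 in NPMc+/Flt3-ITD. Over all kept cells it was high in Flt3-ITD, intermediate in NPMc+, and close to the control in the double mutant. Only the intervals of Mx (418 to 436) and NPMc+/Flt3-ITD (454 to 470.3) come near each other, and they do not overlap. Relative to Mx it was 1.87-fold higher with NPMc+ (1.82 to 1.92), 3.51-fold higher with Flt3-ITD (3.42 to 3.59) and 1.08-fold higher in NPMc+/Flt3-ITD (1.05 to 1.11), the last of which turns to lower when totals leave out mt- and ribosomal protein genes. NPMc+/Flt3-ITD was 3.24-fold lower than Flt3-ITD (3.17 to 3.31) and 1.73-fold lower than NPMc+ (1.69 to 1.77). Without cells with 3 or more T or NK marker UMIs, an alternative chosen after seeing the data, these differences were 1.95-fold and 1.02-fold lower, and in female cells they were 1.93-fold and 1.26-fold lower. Against Mx, NPMc+/Flt3-ITD was 1.82-fold higher without those marker cells. It was 1.76-fold higher than Mx in female cells (1.64 to 1.89) and 1.01-fold higher in male cells.

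Rgs2, an R4 protein with a preference for the Gq alpha subunit, was at 179 CPM in Mx, 259 with NPMc+, 939 with Flt3-ITD and 588 in NPMc+/Flt3-ITD. Over all cells, both libraries with the Flt3-ITD allele were above both without it; in female cells NPMc+/Flt3-ITD (358 CPM) was below NPMc+ (381 CPM). Relative to Mx, Rgs2 was 1.45-fold higher with NPMc+ (1.39 to 1.51), 5.25-fold with Flt3-ITD (5.07 to 5.44) and 3.29-fold in NPMc+/Flt3-ITD (3.17 to 3.41). The double mutant was 1.60-fold lower than Flt3-ITD (1.56 to 1.63) and 2.27-fold higher than NPMc+ (2.20 to 2.34). The order of the 2 genes therefore differed between libraries: Rgs1 UMIs outnumbered those of Rgs2 by 2.39 to 1 in Mx, 3.08 to 1 with NPMc+ and 1.59 to 1 with Flt3-ITD, while the ratio was 0.785 to 1 in NPMc+/Flt3-ITD.

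**Figure D1:**
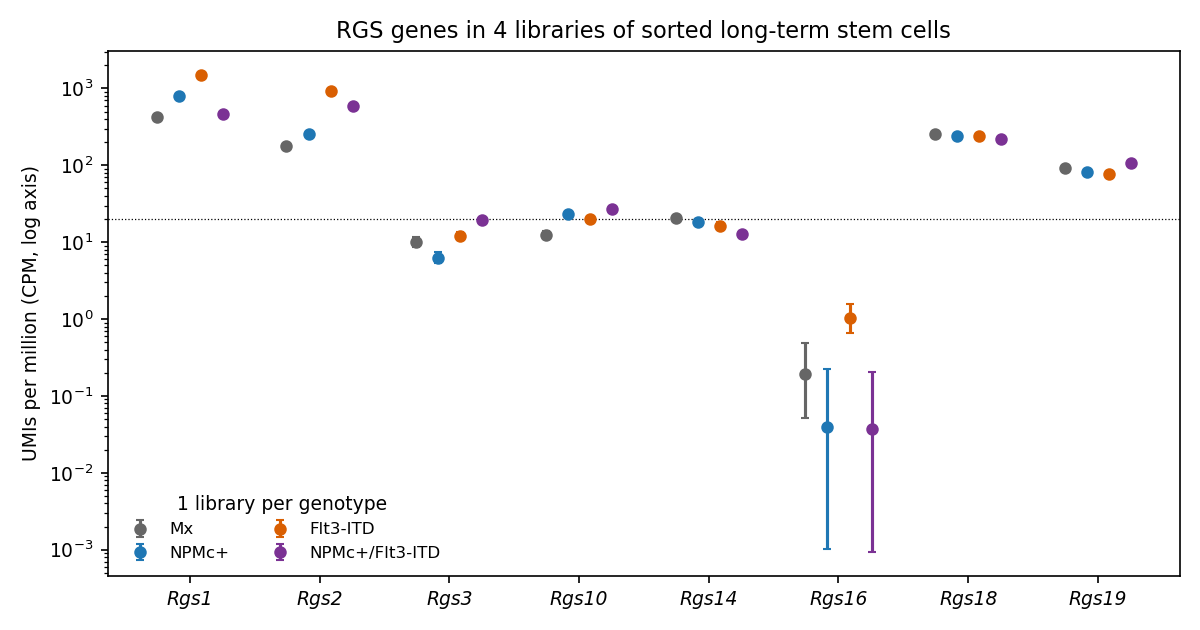
Level of each RGS gene (CPM, log axis) in the 4 libraries, 1 point per library with its exact Poisson 95% interval for counting error; the dotted line marks 20 CPM. Rgs1 and Rgs2 are highest in Flt3-ITD, at 1497 and 939 CPM, Rgs18 stays between 218 and 254 CPM, and Rgs16 is at 1.05 CPM or less.

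Rgs18, an R4 protein best known from megakaryocytes and platelets, was nearly level. It was at 254 CPM in Mx, 243 with NPMc+, 243 with Flt3-ITD and 218 in NPMc+/Flt3-ITD. NPMc+ and Flt3-ITD were 1.05-fold below Mx (1.01 to 1.08 and 1.01 to 1.09) and did not differ from each other beyond counting error, with a ratio of 1.002 (0.965 to 1.04). NPMc+/Flt3-ITD was 1.16-fold lower than Mx (1.12 to 1.21). These directions hold only in part: NPMc+ and Flt3-ITD lie above Mx with TMM scaling, NPMc+ and NPMc+/Flt3-ITD lie above Mx in female cells, and NPMc+/Flt3-ITD lies 1.11-fold above Mx once cells with 3 or more T or NK marker UMIs are left out.

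Rgs19, which acts on the Gi class, was at 91.6 CPM in Mx, 82.6 with NPMc+, 76.8 with Flt3-ITD and 107 in NPMc+/Flt3-ITD. Both single mutants were below Mx, by 1.11-fold (1.04 to 1.18) and 1.19-fold (1.12 to 1.27), and the double mutant was 1.17-fold above it (1.10 to 1.24). The double mutant was also 1.39-fold higher than Flt3-ITD (1.31 to 1.48). All of these are smaller than the 1.5-fold used for lists, and NPMc+ and NPMc+/Flt3-ITD change sides of Mx when cells with other-lineage markers are left out.

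The R12 genes were lower in level. Rgs10, a small RGS protein known from lymphoid and microglial cells, was at 12.6 CPM in Mx, 23.0 with NPMc+, 19.9 with Flt3-ITD and 27.1 in NPMc+/Flt3-ITD. All 3 mutant libraries were above Mx, by 1.83-fold (1.58 to 2.13), 1.58-fold (1.36 to 1.85) and 2.16-fold (1.87 to 2.50). Rgs14, a scaffold that also binds Gi alpha and Ras proteins, went the other way, with 20.5 CPM in Mx, 18.4 with NPMc+, 16.4 with Flt3-ITD and 12.8 in NPMc+/Flt3-ITD. It was 1.61-fold lower in NPMc+/Flt3-ITD than in Mx (1.39 to 1.86) and 1.25-fold lower in Flt3-ITD (1.08 to 1.44). In NPMc+ it did not differ from Mx beyond counting error, 1.11-fold lower with an interval of 0.974 to 1.27.

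Rgs3, known to act on the Gi and Gq classes, was at 10.1 CPM in Mx, 6.30 with NPMc+, 12.01 with Flt3-ITD and 19.4 in NPMc+/Flt3-ITD, under 20 CPM throughout. It was 1.60-fold lower in NPMc+ than in Mx (1.29 to 1.98) and 1.93-fold higher in NPMc+/Flt3-ITD (1.64 to 2.27), which put the double mutant 3.08-fold above NPMc+ (2.58 to 3.71). That last difference was 3.44-fold higher in male cells and 1.01-fold lower in female cells (0.520 to 2.13). Flt3-ITD and Mx did not differ beyond counting error, 1.19-fold higher with an interval of 0.991 to 1.44. Rgs16, an R4 protein induced on activation in lymphocytes, had few UMIs: 4 in Mx, 1 with NPMc+, 23 with Flt3-ITD and 1 in NPMc+/Flt3-ITD. Those counts correspond to 0.191, 0.0399, 1.05 and 0.0371 CPM. The ratio of Flt3-ITD to Mx was 5.48, with a counting interval of 1.87 to 21.8.

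Levels of different members are compared per length. Per kilobase of the longest protein-coding transcript, Mx had 125 CPM of Rgs18, 111 of Rgs1, 60.6 of Rgs19, 59.2 of Rgs2, 14.3 of Rgs10, 8.69 of Rgs14, 2.14 of Rgs3 and 0.0817 of Rgs16. In Flt3-ITD Rgs1 led with 389.8 and Rgs2 followed with 311, ahead of Rgs18 with 119.6. In NPMc+/Flt3-ITD Rgs2 led with 195, before Rgs1 with 120.3 and Rgs18 with 107. On this scale Rgs19 and Rgs2 were neighbours in Mx and far apart in both Flt3-ITD libraries. Without length scaling Mx had 179 CPM of Rgs2 against 91.6 of Rgs19. It also had 427 CPM of Rgs1 against 254 of Rgs18, so the order in Mx depends on the scaling. Because 3′ libraries count molecules near the end of a transcript, dividing by length weighs short transcripts such as that of Rgs10 (880 bases) more than their number of molecules would.

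A ratio of at least 2 with at least 20 CPM in either library was used to count differences, and the same rule was run over all genes. In NPMc+ against Mx 0 of the 6 members at that level passed in either direction, where 1.78% of 6588 genes were higher and 2.23% lower; the nearest were Rgs1 at 1.87-fold and Rgs10 at 1.83-fold, just outside. In Flt3-ITD against Mx 2 of 5 were higher, Rgs1 and Rgs2, and 0 lower, beside 2.38% and 1.74% of genes. In NPMc+/Flt3-ITD against Mx 2 of 6 were higher, Rgs2 and Rgs10, and 0 lower, beside 5.42% and 5.74%, with Rgs10 just inside at 2.16-fold. NPMc+/Flt3-ITD against NPMc+ had 1 of 5 higher, Rgs2, and 0 lower, beside 5.51% and 4.59% of genes. Against Flt3-ITD it had 0 of 5 higher and 1 lower, Rgs1, beside 4.28% and 4.46%. NPMc+ against Flt3-ITD had 0 of 5 higher and 1 lower, Rgs2, beside 1.43% and 1.73%. At 1.5-fold, NPMc+/Flt3-ITD against NPMc+ had 1 of 5 higher (Rgs2) and 1 lower (Rgs1), beside 14% and 7.61% of genes. Against Flt3-ITD it had 0 of 5 higher and 2 lower (Rgs1 and Rgs2), beside 13.7% and 7.35%, and NPMc+ against Flt3-ITD likewise had 0 higher and 2 lower, beside 3.92% and 4.54%. The levels in these comparisons chose the members, so nothing is read from these counts or from the ranks that follow. Among all genes at the 20 CPM level, Rgs2 held rank 29 and Rgs1 rank 46 of 6546 from the highest ratio of Flt3-ITD to Mx. Rgs18, Rgs19 and Rgs14 held ranks 3324, 4904 and 5324 there. In NPMc+/Flt3-ITD against Mx the ranks of Rgs2 and Rgs1 were 181 and 4146 of 6938. Those of Rgs10, Rgs19, Rgs18 and Rgs14 were 330, 3396, 5625 and 6351.

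The double mutant lay away from the sum of the single mutants for several members. On the log2 scale the differences of NPMc+ and Flt3-ITD from Mx sum to 2.71 for Rgs1, and NPMc+/Flt3-ITD differed from Mx by 0.11, which is -2.60 from the sum (counting SE 0.024). For Rgs2 the sum was 2.93 and the double mutant 1.72, or -1.21 from the sum (SE 0.033). Rgs3 went the other way, with a double mutant 1.37 above the sum (SE 0.19), and so did Rgs19 at 0.63 (SE 0.064). Rgs10 was at -0.42 (SE 0.14), Rgs14 at -0.20 (SE 0.15) and Rgs18 at -0.09 (SE 0.038). Departures used all kept cells, and their size was not computed by sex. In female cells Rgs3 was 1.12-fold lower than in Mx with NPMc+, 1.22-fold higher with Flt3-ITD and 1.14-fold lower in NPMc+/Flt3-ITD. Each was within counting error. Rgs10 in female cells was 2.05-fold, 1.30-fold and 5.65-fold higher in the same order. Rgs18 was 1.04-fold higher, 1.17-fold lower and 1.16-fold higher. Rgs14 was 1.02-fold, 1.33-fold and 1.26-fold lower, each within counting error. By these ratios the double mutant lay below the sum in female cells for Rgs3. For Rgs10, Rgs14 and Rgs18 it lay above the sum, each on the other side from all cells. Whether these sides differ beyond counting error was not tested. The departures share the Mx library, and a difference between 1 library and 3 others cannot be told apart from a departure of the genotype.

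Detection in single cells was compared after thinning every cell to 3000 UMIs, which left out 881 of the 10608 kept cells (208 in Mx, 125 with NPMc+, 218 with Flt3-ITD and 330 in NPMc+/Flt3-ITD). Rgs1 was detected in 59.2% of cells in Mx (57.2 to 61.3), 76.7% with NPMc+ (74.9 to 78.4), 88.6% with Flt3-ITD (87.2 to 89.9) and 49.3% in NPMc+/Flt3-ITD (47.5 to 51.1). Without thinning the shares were 78.5%, 93.2%, 96.2% and 64.6%. Cells with a UMI held a mean of 2.25, 3.43, 5.39 and 3.21 Rgs1 UMIs.

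So NPMc+/Flt3-ITD had fewer cells with an Rgs1 UMI than Mx but more UMIs in each, and its CPM was slightly higher; no order of the libraries is read from that share. At least 3 Rgs1 UMIs were found in 18.001% of Mx cells and 21.1% of NPMc+/Flt3-ITD cells, and at least 5 in 5.88% and 10.8%. For NPMc+ the share with at least 5 was 19.2%, and for Flt3-ITD 41.2%.

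Rgs2 was detected in 35.4% of cells in Mx (33.4 to 37.3), 44.8% with NPMc+ (42.7 to 46.8), 81.4% with Flt3-ITD (79.7 to 83.0) and 64.6% in NPMc+/Flt3-ITD (62.9 to 66.3), and without thinning in 59.6%, 72.8%, 93.7% and 81.4%. Its share followed its CPM in all 4 libraries. Rgs18 was detected in 52.5%, 51.3%, 50.9% and 46.1% of cells in the same order of libraries (80.5%, 82.3%, 80.7% and 72.0% without thinning), and Rgs19 in 25.2%, 22.5%, 21.5% and 26.5% (50.4%, 53.7%, 47.5% and 53.8%).

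Rgs10 was detected in 3.03%, 6.31%, 4.74% and 7.62% of cells, Rgs14 in 6.58%, 5.33%, 4.83% and 4.41%, and Rgs3 in 3.46%, 2.09%, 3.68% and 4.95%. Without thinning these were 8.34% to 17.7% for Rgs10, 9.61% to 16.7% for Rgs14 and 6.27% to 14.2% for Rgs3. Rgs16 was seen in 1 cell each of Mx, NPMc+ and NPMc+/Flt3-ITD and in 8 of 2175 Flt3-ITD cells, or 0.368%. These 4 genes were near the limit of detection per cell at this depth.

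**Figure D2:**
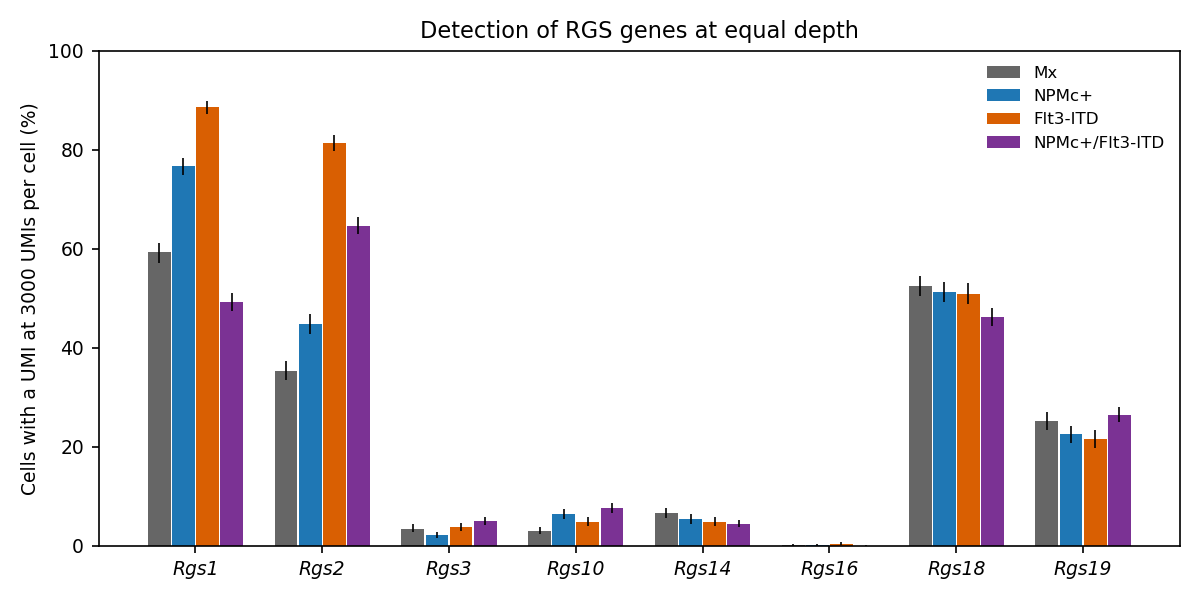
Share of cells with at least 1 UMI of each RGS gene after thinning to 3000 UMIs per cell, 1 bar per library with its exact binomial 95% interval. Rgs2 goes from 35.4% in Mx to 81.4% in Flt3-ITD, while Rgs18 is between 46.1% and 52.5%.

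**Figure D3:**
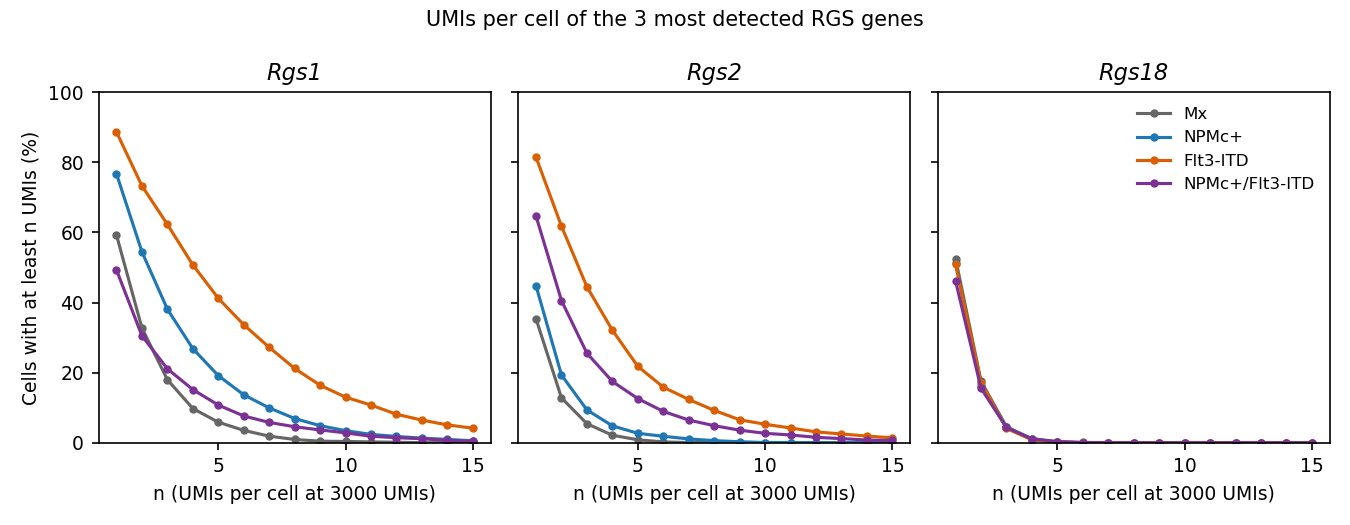
Share of cells (%) with at least n UMIs of Rgs1, Rgs2 and Rgs18 at 3000 UMIs per cell, for n from 1 to 15, 1 line per library. The Rgs1 lines of Mx and NPMc+/Flt3-ITD cross between 2 UMIs (32.7% and 30.5%) and 3 UMIs (18.001% and 21.1%).

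Free RNA in droplets can give UMIs to cells that do not express a gene, and no cell class known to lack Rgs1 or Rgs2 was present in number. Cells with 3 or more erythroid marker UMIs were used as the nearest reference. The marker list includes haemoglobin genes, whose own UMIs could be free RNA, so cells that meet the rule need not be erythroid. Rgs1 was detected in 45.7% of them in Mx against 59.7% of the other cells, with median depths of 8521 and 8340 UMIs. In NPMc+ the shares were 63.2% and 77.5%, at median depths of 10096.5 and 9715 UMIs. In Flt3-ITD they were 66.7% and 89.3%, at 9735 and 9028 UMIs, and in NPMc+/Flt3-ITD only 22 such cells were found. Rgs1 UMIs were thus fewer but common in the erythroid-marker cells. For Rgs2 the shares were 25.9% and 35.7% in Mx, 37.5% and 45.2% with NPMc+, and 79.7% and 81.5% with Flt3-ITD. How far free RNA enters these shares was not tested.

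Most cells held at least 1 member. The share of cells with none of the 8 was 8.35% in Mx, 4.80% with NPMc+, 1.47% with Flt3-ITD and 8.89% in NPMc+/Flt3-ITD. Rgs1 and Rgs2 were seen together in 23.2%, 36.0%, 73.6% and 34.3% of cells. Rgs1 without Rgs2 was the commoner single state in Mx (36.0%, against 12.2% for Rgs2 without Rgs1), NPMc+ (40.7% against 8.76%) and Flt3-ITD (14.99% against 7.82%), and Rgs2 without Rgs1 in NPMc+/Flt3-ITD (30.3% against 14.9%). Within each library the pair went together: Rgs1 was found in 65.6% of cells with and 55.8% of cells without an Rgs2 UMI in Mx. The same shares were 80.4% and 73.6% in NPMc+, 90.4% and 80.7% with Flt3-ITD, then 53.1% and 42.2% in NPMc+/Flt3-ITD.

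Rgs18 was read against its neighbour genes in the same way. It was found in 53.0% of Mx cells with an Rgs1 UMI and 51.8% without, and in NPMc+ and Flt3-ITD the shares were 51.7% and 50.1%, and 51.2% and 48.4%. Only in NPMc+/Flt3-ITD did the intervals of these shares not overlap, at 55.3% (52.7 to 57.9) with and 37.2% (34.8 to 39.7) without an Rgs1 UMI; the difference between libraries was not tested. In that library Rgs18 was also found in 48.9% (46.7 to 51.2) of cells with and 41.02% (38.04 to 44.1) of cells without an Rgs2 UMI. Cells of 1 library share their source, so these are descriptions of each library.

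Male and female cells of a library come from different animals and give a view of the spread within it. Rgs1 was at 424 CPM in male and 419 in female cells of Mx, 779 and 928 with NPMc+, 1522 and 1427 with Flt3-ITD, with 429 and 739 in NPMc+/Flt3-ITD. The ranges of Flt3-ITD, NPMc+ and Mx did not overlap, while that of NPMc+/Flt3-ITD began at the level of Mx. Rgs2 was at 188 and 172 CPM in Mx, 231 and 381 with NPMc+, 1028 and 760.4 with Flt3-ITD, with 590.4 and 358 in NPMc+/Flt3-ITD. Flt3-ITD was above the others in both sexes, and NPMc+/Flt3-ITD, which had only 179 female cells against 2425 male cells, was above NPMc+ in male cells alone.

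Relative to Mx, Rgs1 in Flt3-ITD was 3.59-fold higher in male and 3.40-fold higher in female cells, and Rgs2 was 5.47-fold and 4.43-fold higher. In NPMc+, Rgs2 was 1.23-fold higher in male and 2.22-fold higher in female cells. Rgs10 in NPMc+/Flt3-ITD was at 24.9 CPM in male and 64.8 in female cells, 1.82-fold and 5.65-fold above Mx. The 1.93-fold difference of Rgs3 between NPMc+/Flt3-ITD and Mx over all cells was 1.77-fold higher in male cells and 1.14-fold lower in female cells (0.593 to 2.36).

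**Figure D4:**
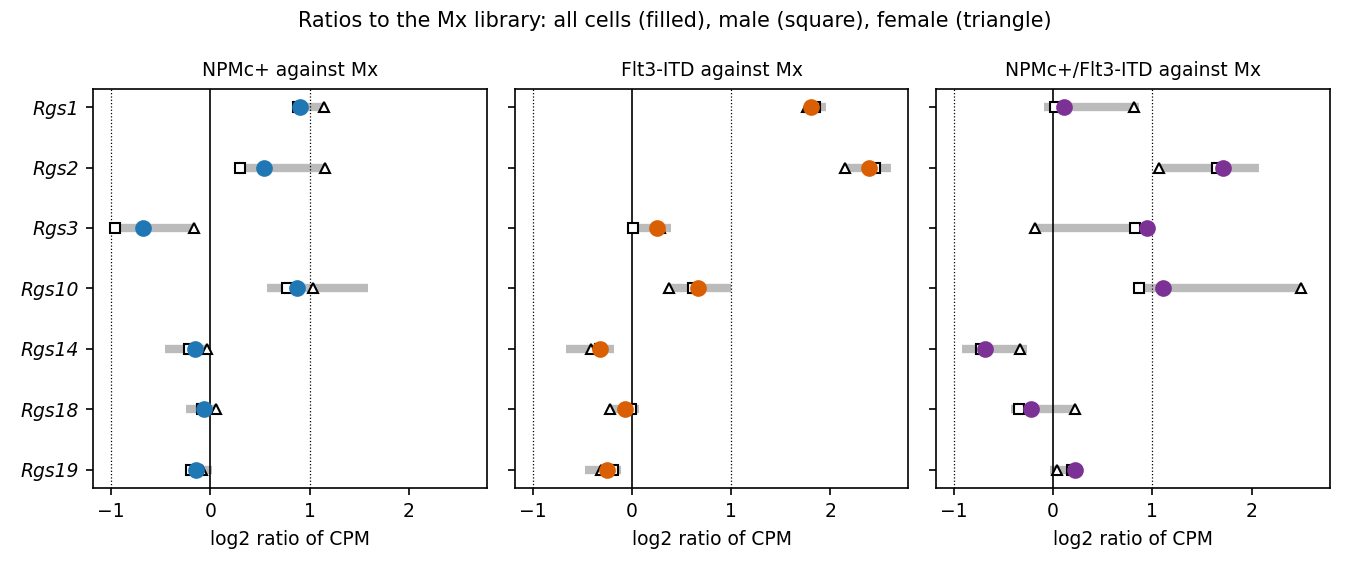
log2 ratio of CPM to the Mx library for 7 RGS genes (Rgs16 is left out for its few UMIs): filled circles are all kept cells, squares male cells, triangles female cells, and the grey bar spans the alternative settings; dotted lines mark 2-fold. Rgs1 and Rgs2 in Flt3-ITD stay beyond 2-fold under all of them, while Rgs1 in NPMc+/Flt3-ITD spans 0.

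The levels were then read within classes of cells set by a UMI rule on the thinned counts. Cells with 3 or more UMIs of the 22 G2/M genes made up 7.14% of cells in Mx, 11.2% with NPMc+, 12.2% with Flt3-ITD and 11.7% in NPMc+/Flt3-ITD. Rgs1 was lower in them than in the other cells of every library, by 1.66-fold in Mx, 1.56-fold with NPMc+, 1.47-fold with Flt3-ITD and 1.59-fold in NPMc+/Flt3-ITD. Rgs2 was lower as well, by 1.18-fold, 1.56-fold, 2.22-fold and 1.73-fold, and Rgs19 by 1.47-fold, 1.54-fold, 1.44-fold and 1.20-fold. Rgs10 was higher, by 2.33-fold in Mx, 1.60-fold with NPMc+ and 1.55-fold with Flt3-ITD, and by 1.07-fold in NPMc+/Flt3-ITD. These cells had a median of 11688 to 15742 UMIs against 7554 to 9437 in the rest, and a CPM is relative to that total.

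With G2/M cells left aside, Rgs2 was 5.70-fold higher in Flt3-ITD than in Mx, and within them it was 3.04-fold higher. Rgs1 was 3.56-fold and 4.00-fold higher. The difference between Flt3-ITD and Mx was thus present on both sides of the rule.

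**Figure D5:**
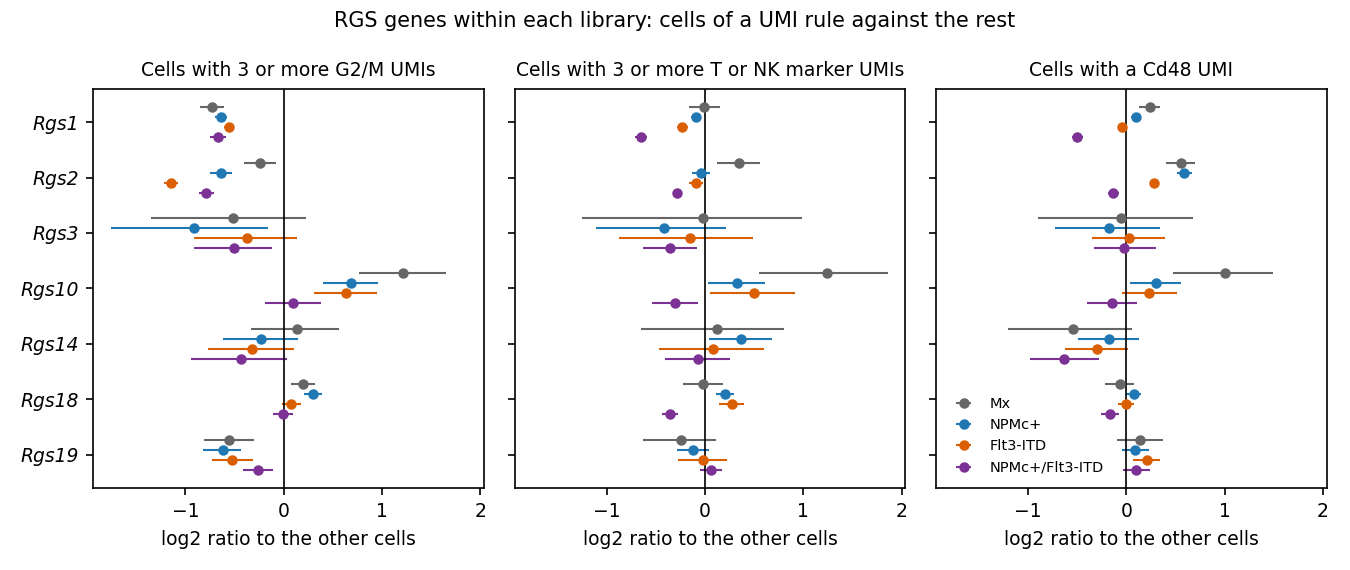
log2 ratio of the CPM of 7 RGS genes in cells that meet a UMI rule to that in the other cells of the same library, with 95% intervals for counting error, 1 colour per library. G2/M cells lie below the rest for Rgs1, Rgs2 and Rgs19 in all 4 libraries, and cells with T or NK marker UMIs lie below for Rgs1 and Rgs18 in NPMc+/Flt3-ITD.

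Cells with 3 or more UMIs of the T or NK markers were 83 of 2311 cells in Mx, 379 of 2250 with NPMc+, 176 of 2175 with Flt3-ITD and 1219 of 2991 in NPMc+/Flt3-ITD. In NPMc+/Flt3-ITD Rgs1 was at 340.0 CPM in them and 534 in the rest, 1.57-fold lower, and it was detected in 36.1% against 58.4% of cells, at median depths of 6872 and 8407.5 UMIs. Rgs18 was detected in 36.4% against 52.8%, and Rgs2 in 61.9% against 66.5%. In the other 3 libraries Rgs1 differed by 1.17-fold or less between the same classes. With all cells holding 3 or more such UMIs at full depth left out, Rgs1 in NPMc+/Flt3-ITD was at 795 CPM, 1.82-fold above Mx, 1.02-fold below NPMc+ (812 CPM) and 1.95-fold below Flt3-ITD, from 800 of 3321 cells. The same rule kept 2101 of 2519 cells in Mx, 1248 of 2375 with NPMc+ and 1535 of 2393 with Flt3-ITD. At full depth a deeper cell reaches 3 UMIs more easily, so the rule also selects on depth. The rule on thinned counts left 534 CPM in NPMc+/Flt3-ITD. The level of Rgs1 in the double mutant therefore depends on which cells are counted.

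The immediate-early genes are transcribed within minutes of a stimulus, cell handling included, and most were higher in the mutant libraries too. At least 1.5-fold higher than in Mx were 18 of 25 with NPMc+ (4.37% of all genes), 23 of 25 with Flt3-ITD (4.41%) and 15 of 23 in NPMc+/Flt3-ITD (14.1%), with median log2 ratios of 1.09, 1.76 and 1.04 beside -0.01, -0.06 and 0.21 over all genes. Nr4a1, a nuclear receptor, was at 45.6, 159, 659 and 96.1 CPM in Mx, NPMc+, Flt3-ITD and the double mutant NPMc+/Flt3-ITD, Atf3 at 6.54, 75.8, 152 and 24.9 CPM and Fos at 1164, 3087, 4125 and 3621 CPM. The order of Nr4a1 and Atf3 resembled that of Rgs1, while Fos was lowest in Mx and between 3087 and 4125 CPM in every mutant library. The part of cell handling in the levels of the RGS genes was not tested.

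Cells with no UMI of Nr4a1 or Atf3 were 1999 of 2311 in Mx and 378 of 2175 in Flt3-ITD. In those cells alone Rgs1 was at 418 CPM in Mx and 1406 in Flt3-ITD, 3.36-fold higher (3.25 to 3.48), and Rgs2 at 178 and 773 CPM, 4.33-fold higher (4.12 to 4.55). Over all cells the same ratios were 3.51 and 5.25. In NPMc+/Flt3-ITD, Rgs1 was 1.68-fold lower in such cells (393 CPM) than in the rest (662 CPM).

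Cells with a UMI of both Procr and Hlf, genes known from primitive stem cells, were read alone next. They numbered 391 in Mx, 255 with NPMc+, 146 with Flt3-ITD and 103 in NPMc+/Flt3-ITD, and within them Rgs1 was at 489, 848, 1437 and 469.6 CPM and Rgs2 at 197, 235, 939 and 590.2 CPM. Flt3-ITD was 2.94-fold above Mx for Rgs1 (2.75 to 3.15) and 4.75-fold for Rgs2 (4.30 to 5.26). Rgs10 was lower in these cells than in the others of Mx (1.72-fold) and NPMc+ (2.63-fold), at 7.82 and 9.28 CPM. Rgs1 in NPMc+/Flt3-ITD was 1.04-fold lower than in Mx, within counting error (0.931 to 1.17). Rgs18 in these cells was 1.37-fold lower in NPMc+ than in Mx (1.22 to 1.54).

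Rgs18 was higher in cells with platelet transcripts. Cells with 3 or more UMIs of Pf4, the platelet factor, numbered 54 in Mx and 268 in NPMc+, and under 50 in the other libraries. Rgs18 was at 345 CPM in them and 251 in the rest of Mx, 1.38-fold higher, and at 359 and 223 CPM in NPMc+, 1.61-fold higher. Rgs2 was lower in them, by 1.94-fold in Mx and 1.49-fold in NPMc+, and Rgs19 by 1.56-fold and 1.45-fold. Cells with a Vwf UMI in NPMc+ also had less Rgs1 and Rgs2, by 1.496-fold and 1.82-fold, while in Mx the 64 such cells had 370.4 CPM of Rgs1 against 429 in the rest.

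Cells with a UMI of Cd48, a surface protein of progenitors, made up 7.62% of Mx cells, 39.7% of Flt3-ITD cells and 74.1% of NPMc+/Flt3-ITD cells. Rgs2 was higher in them by 1.46-fold in Mx, 1.51-fold with NPMc+ and 1.21-fold with Flt3-ITD, and 1.10-fold lower in NPMc+/Flt3-ITD. Rgs1 was 1.41-fold lower in the Cd48 cells of NPMc+/Flt3-ITD, at 424.5 against 599.9 CPM, and within 1.18-fold of the rest in the other libraries. Without Cd48 cells, Rgs1 in NPMc+/Flt3-ITD was 1.42-fold higher than in Mx (1.37 to 1.48), and Rgs2 was 3.67-fold higher (3.495 to 3.85). Cells with 5 or more UMIs of Cd74, the invariant chain of MHC class II, had less Rgs2 than the rest in NPMc+ (1.48-fold) and NPMc+/Flt3-ITD (1.51-fold).

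The chemokine receptor genes were mostly at low levels. Of 23 such genes, 1 or 2 reached 20 CPM in a comparison with Mx, beside 6546 to 6938 of all 26687 gene symbols. Cxcr4 was at 16.8 CPM in Mx, 14.2 with NPMc+, 10.6 with Flt3-ITD and 23.0 in NPMc+/Flt3-ITD, so that NPMc+/Flt3-ITD was 2.16-fold above Flt3-ITD (1.85 to 2.52). The library with the most Rgs1 and Rgs2 had the least Cxcr4, but NPMc+/Flt3-ITD had the most Cxcr4 and more Rgs2 than Mx or NPMc+. Cxcr4 reached 20 CPM in NPMc+/Flt3-ITD alone, and a relation between these genes was not tested. Ccrl2, an atypical receptor that binds chemerin without signalling, was at 17.6, 21.1, 48.8 and 33.2 CPM, 2.78-fold above Mx in Flt3-ITD.

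Among the 47 other G protein-coupled receptors listed, 6 of 20 were at least 1.5-fold higher and 1 lower with NPMc+ than in Mx, 3 of 16 higher and 2 lower with Flt3-ITD, and 6 of 17 higher and 1 lower in NPMc+/Flt3-ITD. The shares over all genes were 4.37% higher and 8.91% lower, 4.41% and 6.4%, and 14.1% and 9.84%. In NPMc+ the receptors F2rl2 and P2ry1, both known from platelets, were 10.8-fold and 5.06-fold higher. F2r, a thrombin receptor, was at 64.6, 172, 154 and 267 CPM, 2.39-fold higher in Flt3-ITD and 4.13-fold in NPMc+/Flt3-ITD. In NPMc+/Flt3-ITD the adhesion receptor Adgrg3 was 6.38-fold higher and Adgrl4 8.87-fold lower than in Mx.

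Gnai2, the main Gi alpha subunit of blood cells, was at 359 CPM in Mx, 396 with NPMc+, 390.0 with Flt3-ITD and 341 in NPMc+/Flt3-ITD, at most 1.16-fold apart in all 6 comparisons. Of the alpha subunits, 0 of 6 were 1.5-fold apart in NPMc+ and 1 of 6 in Flt3-ITD, where Gna13 was 1.70-fold higher. In NPMc+/Flt3-ITD 1 of 7 was higher and 1 lower: Gnai3 was 2.18-fold higher and Gnaq, the partner of Rgs2, 1.58-fold lower (23.7 against 14.98 CPM). The shares of all genes tested at 1.5-fold were 4.37% higher and 8.91% lower for NPMc+, 4.41% and 6.4% for Flt3-ITD, and 14.1% and 9.84% for the double mutant. Gng11, a gamma subunit abundant in platelets, was at 163, 102, 71.8 and 12.7 CPM, 12.8-fold lower in NPMc+/Flt3-ITD.

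The effectors downstream of G proteins include phospholipases, adenylyl cyclases and phosphodiesterases. At 1.5-fold, 0 of 19 were higher and 1 lower in NPMc+, 1 of 20 higher and 1 lower with Flt3-ITD, and 3 of 20 higher and 2 lower in NPMc+/Flt3-ITD. Of all genes tested, 4.37% were higher and 8.91% lower at 1.5-fold with NPMc+, 4.41% and 6.4% with Flt3-ITD, and 14.1% and 9.84% with both. Pde4b, which degrades cyclic AMP, was 2.63-fold higher in Flt3-ITD (208 against 79.2 CPM), and Pde4d 2.39-fold higher in NPMc+/Flt3-ITD (54.6 against 22.9 CPM). Plcb2 and Plcb4, phospholipases driven by G proteins, were 2.06-fold and 2.92-fold lower in NPMc+/Flt3-ITD. Plcb2 was also 1.73-fold lower in NPMc+, and Plcb4 1.77-fold lower in Flt3-ITD. Of the chemokines, 3 of 4 were at least 1.5-fold higher and 0 lower with NPMc+. With Flt3-ITD 3 of 6 were higher and 0 lower, and in NPMc+/Flt3-ITD 4 of 6 were higher and 1 lower. Cxcl2 was 19.3-fold higher in Flt3-ITD and 5.70-fold higher in NPMc+/Flt3-ITD, from 3.63 CPM in Mx. Among receptor kinases, arrestins and modulators, 1 of 8 was higher and 1 lower with NPMc+. With Flt3-ITD 0 of 8 were higher and 1 lower, and in NPMc+/Flt3-ITD 1 of 8 was higher and 1 lower. Arrb2 was 1.68-fold higher in NPMc+, 1.27-fold in Flt3-ITD and 1.77-fold in NPMc+/Flt3-ITD. Gprasp1 was 1.93-fold, 1.80-fold and 2.61-fold lower in the same order.

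The genes nearest to each member over the 4 libraries were found by the distance of their centred log2 CPM, among 6610 genes; with 4 points such likeness is a description of these libraries. Rgs1 was nearest to Hivep2 (14.9, 24.3, 48.0 and 14.9 CPM; distance 0.14), then Csrnp1 and Dennd4a. Rgs2 was nearest to Bhlhe40 (12.03, 17.7, 58.6 and 32.9 CPM; distance 0.23), then Fosb and Arl4c. The neighbours named for the 2 genes differed. Only a few of the 6610 genes were taken for each and no expected overlap was computed, so nothing is read from that. Rgs10 was nearest to Cdc20 and Ccnb2, both genes of mitosis, and then to Ucp2, with distances of 0.11 to 0.15. Rgs3 was nearest to Emb, Sept1 and Cisd3, Rgs14 to Ccdc69, Def8 and Ptpn12, Rgs18 to Mapk9, Sdhaf4 and Exoc6, and Rgs19 to Atg7, Actr5 and Hdlbp. For Rgs16 the nearest gene was at a distance of 1.95, from 1 to 23 UMIs of Rgs16 per library.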

How the data were processed

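Gene counts per cell barcode were deposited by the authors as 4 tables of whole UMI counts, not normalized, 1 table per genotype; STAR 2.7.0c with STARsolo and build mm10 are named in the submitters' processing notes, and the annotation and cell calling were not given in the sources used here. Barcodes were kept from 1000 UMIs and 500 genes upwards, with mt- UMIs up to 10%. For each library the UMIs of a gene in kept cells were added up and divided by the library total (CPM); the totals were 20943905 UMIs for Mx, 25070675 with NPMc+ alone, 21982925 with Flt3-ITD alone and 26965367 with both. With 1 library per genotype no test was run. CPM carry exact Poisson intervals, ratios exact conditional binomial intervals and shares exact Clopper-Pearson intervals, all at 95% and for counting error only. The ratio script and the thinning were tested on simulated data. Shares of cells used counts thinned without replacement to 3000 UMIs per cell (seed 1). A gene was called at 20 CPM or more in either library and a ratio of 2, and in the gene lists at a ratio of 1.5.

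The members and all gene lists were chosen with earlier results of these data known. The receptor list was corrected by 1 gene after values were seen; that gene is not reported here. The genes named were drawn from a set fixed by rule. It held the 8 members, other RGS genes at 20 CPM, Cxcr4, Gnai2, Gnaq, Nr4a1, Fos and Atf3. The 2 highest and 2 lowest ratios to Mx of each list were also in it. So were the 3 nearest genes of each member without prediction, mitochondrial, ribosomal, receptor-segment or sex-linked names. Not every gene of the set is named, so those given are a selection. Rgs12 and the mention of other genes in UMI rules fall outside the set. Doublets were not called; leaving out the 5% of cells with most UMIs stood in for that. Cells were split into male and female by UMIs of 4 Y-linked genes against Xist. Gene positions are from GENCODE M21, where 25415 symbols matched. Python 3.11.15, numpy 2.4.6, scipy 1.17.1, pandas 2.3.3, R 4.3.3 and edgeR 4.0.16 (TMM factors only) were used. In all, 14 alternatives were run on the counts of members and up to 12 of them on each ratio.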

Additional observations from a re-analysis of the deposited data

Results flagged for a closer look

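Rgs18 differed in direction between the sexes in 4 comparisons, with intervals that did not reach 1 on either side, and the difference was not tested. In NPMc+/Flt3-ITD against Mx it was 1.27-fold lower in male and 1.16-fold higher in female cells, a male-minus-female difference of log2 ratios of -0.56. Against NPMc+ the values were 1.19-fold lower and 1.12-fold higher (-0.42), and against Flt3-ITD 1.26-fold lower and 1.36-fold higher (-0.78). In NPMc+ against Flt3-ITD they were 1.06-fold lower and 1.21-fold higher (-0.36). The double mutant held 179 female cells.

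Some members moved one way when an allele was added to the control and the other way when it was added to the other mutant, again untested with 1 library per genotype. Rgs1 was 3.51-fold higher with Flt3-ITD on the Mx background and 1.73-fold lower on the NPMc+ background; for NPMc+ it was 1.87-fold higher on Mx and 3.24-fold lower on Flt3-ITD, both -2.60 on the log2 scale. Without cells with 3 or more T or NK marker UMIs the double mutant was 1.82-fold above Mx, 1.02-fold below NPMc+ and 1.95-fold below Flt3-ITD. Rgs2 was 1.45-fold higher with NPMc+ on Mx and 1.60-fold lower on Flt3-ITD (-1.21). Rgs3 was 1.60-fold lower with NPMc+ on Mx and 1.62-fold higher on Flt3-ITD (1.37); the latter was 1.75-fold higher in male cells and 1.38-fold lower in female cells (0.748 to 2.79). Rgs19 was lower with either allele on Mx, by 1.19-fold for Flt3-ITD and 1.11-fold for NPMc+, and higher on the other mutant by 1.29-fold and 1.39-fold (0.63 for each); without cells with other-lineage markers it was 1.01-fold higher with NPMc+ on Mx and 1.03-fold lower with Flt3-ITD on NPMc+.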

How the results depend on the processing

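Of 84 counts of members at least 2-fold apart under 14 alternatives, 71 stayed within 1.5 times the reported count. A count can stay while the gene behind it changes. In female cells NPMc+/Flt3-ITD against NPMc+ stayed at 1, with Rgs10 (2.76-fold higher) in place of Rgs2. NPMc+ against Mx went from 0 to 2 with TMM scaling (Rgs1 and Rgs10) and to 3 in female cells (Rgs1, Rgs2 and Rgs10). NPMc+/Flt3-ITD against Mx went from 2 to 1, Rgs2 alone, with totals without mt- and ribosomal protein genes, at 50 CPM, in male cells, and without cells bearing other-lineage markers. Against NPMc+ it went from 1 to 2 with those totals, at 5 CPM and in male cells (Rgs2 and Rgs3), and without cells bearing 3 or more T or NK marker UMIs, an alternative chosen after seeing the data (Rgs2 and Rgs10). Against Flt3-ITD it went from 1 to 2 in female cells (Rgs2 lower, Rgs10 higher) and to 0 without the T or NK marker cells. NPMc+ against Flt3-ITD went from 1 to 0 in female cells. Of 554 ratios under up to 12 alternatives, 30 lay on the other side of 1 from the reported one, 16 of them of Rgs18. Among the 84 of reported ratios that met the 2-fold call, 1 did: Rgs2 in NPMc+/Flt3-ITD against NPMc+ was 0.941 in female cells. The cause was not tested for any of these.

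TMM shifted the median log2 ratio of all genes by 0.15 in NPMc+ and in Flt3-ITD against Mx, and totals without mt- and ribosomal protein genes shifted it by -0.24 in NPMc+/Flt3-ITD against Mx. The share of called genes that were higher went from 44.3% to 62.2% (NPMc+) and from 57.8% to 73.0% (Flt3-ITD) with TMM, and from 48.6% to 34.2% with those totals (NPMc+/Flt3-ITD). It went to 47.5% with those totals in Flt3-ITD against Mx, from 54.5% to 42.5% with TMM for the double mutant against NPMc+, and from 49.0% to 36.2% with TMM and 38.8% with those totals against Flt3-ITD.

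The other-lineage filter left out 79.3% to 92.9% of cells, and leaving out T or NK marker cells kept 800 cells of NPMc+/Flt3-ITD. Of 128 shares of cells, 90 moved with thinning depth or seed, 5 of them by seed. Rgs3, Rgs10, Rgs14 and Rgs16 are limited by depth. No paired analysis was possible because each genotype had 1 library.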
